A study of Mus musculus with 2 samples.

Results

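Broad CtBP2 domains were runs of at least 3 consecutive 1 kb bins of the MIN6 genome that each held dense CtBP2 ChIP signal. MIN6 is a mouse insulinoma line that stands in for pancreatic beta cells, and here it was cultured in the ordinary way, with no treatment or genetic change named. Anti-CtBP2 chromatin immunoprecipitation (ChIP) gave 1 library and input chromatin, sheared and sequenced without precipitation, gave 1 library. Domains were chosen from the ChIP reads themselves: after 1 read per position and strand was kept, consecutive 1 kb bins each had to hold at least 40 reads, over at least 3 bins. Of 2407019 bins analysed 24675 (1.03%) reached 40 reads and formed 16583 runs, of which 805 (4.85%) were broad domains, 6243 were runs of 2 bins and 9535 were single bins. Since the ChIP count chose the members, their ChIP density is given as a description. Repeated reads were not part of the choice, and input entered it only by leaving out 10 kb bins with 4200 or more input lines.

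CtBP2 is a transcriptional co-repressor that does not read a DNA sequence of its own. It binds NAD(H), forms dimers and reaches chromatin through partner transcription factors, and it brings histone deacetylases, histone methyltransferases and the demethylase LSD1 to their sites. A wide ChIP signal of such a factor can hold several neighbouring sites or a continuous stretch, which the shape of the reads can describe.

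The ChIP library held 8465978 distinct reads on chromosomes 1 to 19 and X, and the input library 12441172. Each group was 1 library, so differences could not be set against replicates and none was tested, and all intervals are 95% intervals that cover counting error only. A control IgG library was not analysed here, so signal that any precipitation would give cannot be told apart from CtBP2 signal. Positions are on mouse build mm9. Genes and bases of that build were not used, and each domain is therefore given by its coordinates.

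Broad domains together covered 2654 kb and held 660451 ChIP reads, 7.80% of the library, and 155808 input reads, 1.25% of the library. The ChIP to input ratio was 4.24 (exact interval 4.22 to 4.26) in broad domains, against 0.291 over all bins under the limit. Domains were short for their name. Of the 805 domains 650 had 3 bins, 119 had 4 bins and 23 had 5 bins, and only 13 had 6 or more. Measured without the bin grid, as the unbroken stretch around the highest point with at least 20 reads in each 500 bp, the median width was 1800 bp in broad domains, 1150 bp in runs of 2 bins and 750 bp in single bins. That stretch reached 3000 bp in 45 domains (5.59%). The position of the bin grid decided much of the membership: when bins began at position 500, 813 domains were found and 417 of the 805 (51.8%) were found again. Of the 155 domains of 4 or more bins 130 were found on both grids, against 287 of the 650 domains of 3 bins. The median ChIP to input ratio was 4.14 in the domains found on both grids and 4.31 in those found on the main grid alone.

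Domains fell into 2 kinds by how often a read position was repeated in the deposited lines, a measure the choice of members did not use. In 761 domains ChIP lines per distinct position and strand ran from 1.44 to 4.01 with a median of 2.46. In the other 44 domains they ran from 1.05 to 1.22 with a median of 1.08, and no domain lay between 1.3 and 1.4. The limit of 1.3 was chosen after the values were seen, and the nearest domains above it were 6 with 1.4 to 1.5 lines per position. The values by depth describe the same split and add no support to it. Bins with 100 to 149 distinct ChIP reads had a median of 1.09 lines per position in the 44 domains (73 bins), 2.06 in the 761 domains (366 bins) and 2.08 in shorter runs (3117 bins). Bins under the limit had 1.59 ChIP lines per position over the whole genome. In the input library the median was 1.03 lines per position in the 44 domains and 1.17 in the 761. Of all domains 5.47% (44 of 805) had fewer than 1.3 ChIP lines per position, against 17.4% of runs of 1 or 2 bins.

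**Figure D1:**
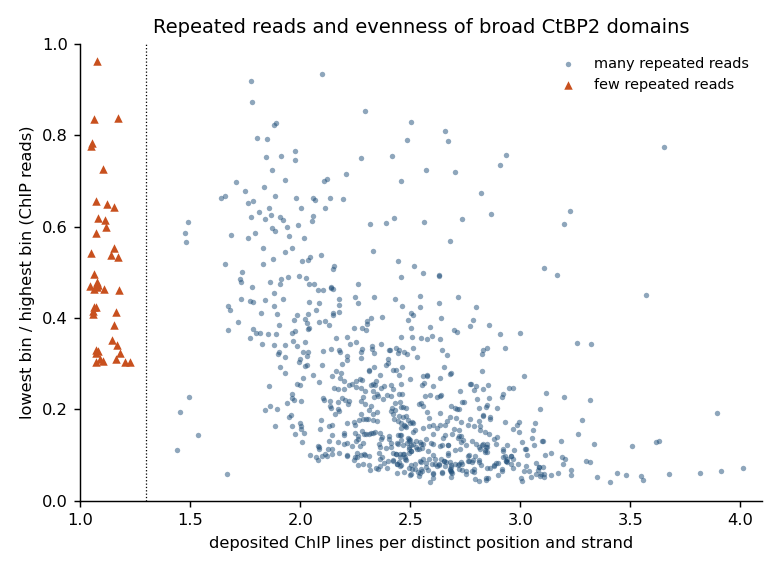
Each point is a broad domain, placed by deposited ChIP lines per distinct position and strand (x axis) and by the ChIP reads of its lowest bin over those of its highest bin (y axis). The 44 domains left of the dotted line at 1.3 (triangles) had ratios of at least 0.303 and the 761 to the right reached down to 0.0400, and since each bin had to hold 40 reads, the lowest possible ratio depends on the highest bin, which was lower in the 44.

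The 761 domains with many repeated reads had, in their mean profile, a high summit with a wide shoulder. Their highest bin held a median of 55.9% of their ChIP reads, and the lowest bin held a median of 0.194 times the reads of the highest. Among those of 3 bins the middle bin was the highest in 420 of 622 (67.5%), the first in 97 and the last in 105. Around the summit the mean ChIP density was 1020 reads per kb at 50 bp, 197.0 at 550 bp, 115.0 at 1050 bp, 71.5 at 1550 bp and 31.7 at 2050 bp. Runs of 2 bins had nearly the same summit but no shoulder, with 927 reads per kb at 50 bp, 93.0 at 550 bp, 13.3 at 1050 bp and 2.82 at 1550 bp. The low value of the shorter runs beyond 1 kb follows in part from the rule, since a bin of 40 reads there would have made the run longer. The shoulder of the 761 domains follows in part from the same rule, which asked for 40 reads in each of at least 3 bins. The mean also takes in domains with more than 1 summit.

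Many of these wide signals held several summits. A summit had to reach 0.5 of the highest point and stand at least 0.5 of its own height above the valleys beside it. By this measure 355 of the 761 domains (46.7%) had 1 summit, 310 (40.7%) had 2 and 96 (12.6%) had 3 or more. Of runs of 2 bins 90.0% had 1 summit, and of single bins 95.6%, although a longer stretch also offers more room for a summit. The width at 0.5 of the summit height differed little, with a median of 450 bp in the 761 domains, 450 bp in runs of 2 bins and 350 bp in single bins. The best lag between strands, an estimate of fragment length, was 230 bp in ChIP and 220 bp in input in these domains, against 220 bp and 205 bp in runs of 2 bins.

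**Figure D2:**
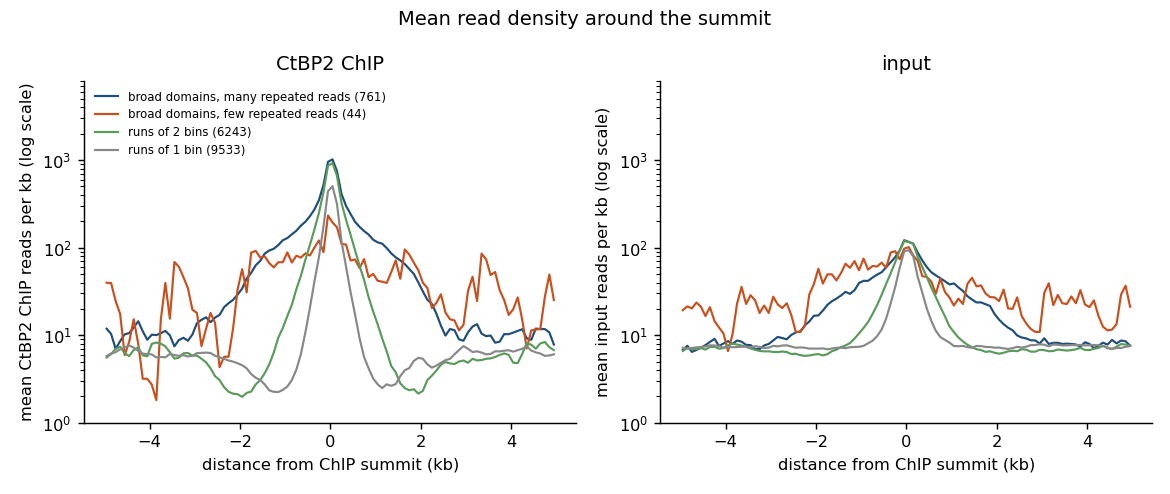
Mean ChIP (left) and input (right) reads per kb, on log axes, against distance from the ChIP summit for broad domains with many and few repeated reads, runs of 2 bins and single bins. In ChIP the domains with many repeated reads held 115.0 reads per kb at 1050 bp, where runs of 2 bins held 13.3, and their input at that distance was 39.1 against 10.9 reads per kb.

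The domain with the most ChIP reads was chr17:34255001-34260000, where 5 bins held 436, 1026, 450, 280 and 656 ChIP reads and 85, 127, 58, 72 and 139 input reads. Its signal had 4 summits, no bin fell under 280 ChIP reads, and the ratio was 5.92 (5.37 to 6.54). The next, chr12:77469001-77473000, had another shape. Its 4 bins held 47, 1100, 1042 and 176 ChIP reads and 12, 164, 133 and 46 input reads, which made a single summit 1750 bp wide at 0.5 of its height. At chr15:96115001-96119000 the bins held 534, 404, 933 and 482 ChIP reads and 74, 56, 80 and 78 input reads, the highest ratio among the 10 domains with most reads at 8.17 (7.23 to 9.27). The domain chr7:71082001-71085000 was the most even of those with many repeated reads in that list, with 736, 776 and 559 ChIP reads and 85, 106 and 96 input reads. The others with many repeated reads were chr8:11006001-11010000 with 2172 ChIP and 405 input reads, chr11:102177001-102181000 with 2152 and 383, chr15:38228001-38233000 with 2131 and 406, and chr1:88421001-88426000 with 2052 and 424. In the densest 200 bp a median of 45.8% of the 400 places (both strands) were in use in the 761 domains and 80% at most, and each place counts once however often it was read.

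Wider domains were not denser: among those with many repeated reads ChIP density was 266 reads per kb at 3 bins, 247 at 4 bins and 236 at 5 or more. At chr11:74978001-74988000 the ChIP reads of 10 bins were 69, 193, 195, 70, 237, 124, 73, 70, 547 and 228, with 36, 107, 80, 35, 77, 49, 25, 15, 117 and 53 input reads. By the summit measure above, the signal had 4 summits along the stretch, and it stayed at 69 or more reads per bin. At chr11:23976001-23983000 7 bins held 214, 260, 179, 291, 142, 72 and 98 ChIP reads and 72, 77, 52, 72, 27, 65 and 34 input reads. Here the ChIP profile resembled itself when moved by 1400 bp, with a correlation of 0.62 over 50 bp steps within the library, while the input profile had its highest value, 0.41, at 2250 bp. At chr16:30063001-30069000 the bins held 467, 611, 72, 69, 362 and 91 ChIP reads and 55, 113, 46, 37, 48 and 24 input reads, a pair of peaks joined by low bins. By bins, the domain chrX:11664001-11670000 was arranged alike, with 348, 324, 87, 74, 251 and 66 ChIP reads and 44, 43, 30, 29, 46 and 22 input reads. The other domains of 6 bins with many repeated reads were chrX:166424001-166430000 with 1447 ChIP and 1324 input reads, chr7:28114001-28120000 with 807 and 285, and chr11:120094001-120100000 with 704 and 316. Domains with many repeated reads had a pooled ratio of 4.56 (4.53 to 4.59) at 3 bins, 4.20 (4.14 to 4.26) at 4 bins and 3.62 (3.54 to 3.70) at 5 or more. The last set was 29 domains with 10227 input reads, of which chrX:166424001-166430000 alone held 1324. The median ratio of single domains was 4.42 at 3 bins, 3.88 at 4 bins and 3.82 at 5 or more.

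Input, which the limit of 40 ChIP reads did not use, was raised in nearly every broad domain. Input density was 58.7 reads per kb in broad domains, 49.8 in runs of 2 bins, 47.2 in single bins and 4.67 in bins under the limit, so broad domains stood at 12.6 times the rest of the genome. The domain's input was at least 3 times the rest in 804 of 805 domains, against 5.92% of all windows of 3 bins and 98.1% of runs of 1 or 2 bins. It was at least 10 times the rest in 550 (68.3%), against 0.204% of windows and 44.3% of runs of 1 or 2 bins. Flanks were the bins under the limit 2 to 20 kb away, so bins that reached 40 ChIP reads were left out of them. Against such flanks the rise was local, with a median of 10.9 times the flank input in domains. Of the 805 domains 796 (98.9%) had at least 2 times, against 99.8% of runs of 2 bins. The domain under 3 times the rest was chr6:142253001-142256000, which held 156 ChIP reads (132.5 to 182.5) and 19 input reads (11.4 to 29.7). Its input density was 1.36 times the rest of the genome, and its ChIP to input ratio of 8.21 (5.09 to 14.0) ranked 16 of 805.

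Input in the highest bin went up with ChIP depth in broad domains and in shorter runs alike. Where the highest bin held 100 to 199 ChIP reads, input in that bin had a median of 47.5 reads in the broad domains with many repeated reads (order-statistic interval 44 to 53, 98 domains), 44 in runs of 2 bins and 44 in single bins. Where it held 800 or more, the medians were 117.5 (112 to 124, 102 domains), 111 and 107. In the range of 200 to 399 broad domains had a median of 67.5 input reads (64 to 73, 160 domains), runs of 2 bins 58 (57 to 59) and single bins 64 (63 to 65), with 287, 301 and 287 ChIP reads. In the range of 400 to 799 broad domains had more input, 100 against 84 and 86, and also more ChIP, 588 against 521 and 503. Of runs whose highest bin held 800 or more reads 44.5% were broad domains with many repeated reads, against 0.637% of those at 40 to 99 reads.

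**Figure D3:**
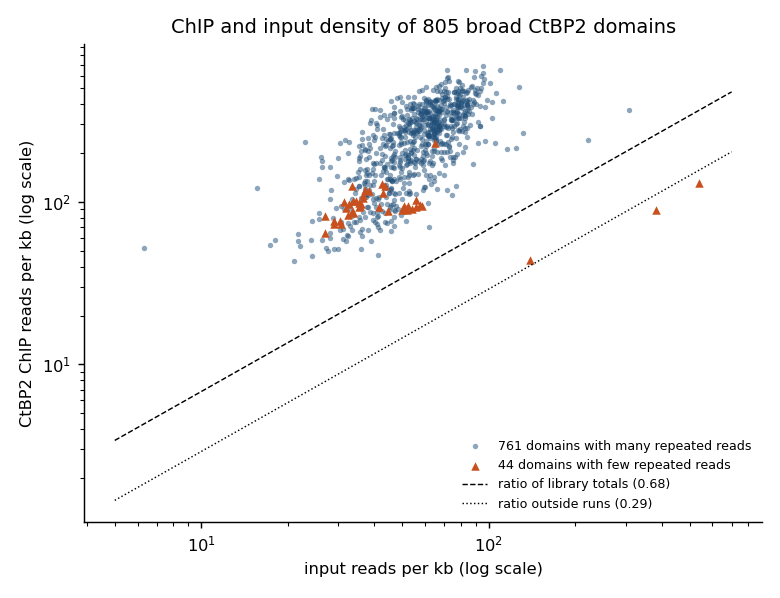
Each point is a broad domain, placed by input reads per kb (x axis, log) and CtBP2 ChIP reads per kb (y axis, log), with the ratio of library totals and the ratio outside runs as lines. All 761 domains with many repeated reads lie above the ratio of totals, and 3 of the 44 with few repeated reads lie below it.

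ChIP exceeded input, scaled by library totals (0.680), by at least 3 times in 738 of 805 domains (91.7%), against 80.7% of runs of 1 or 2 bins. At 5 times it was 528 (65.6%) against 50.6%, and at 10 times it was 69 (8.57%) against 8.48%. The ChIP count chose both the domains and the shorter runs, so these shares are a description and nothing is read from their differences. The highest ratio was at chr13:43575001-43578000, with 49, 602 and 51 ChIP reads and 20, 39 and 10 input reads, a ratio of 10.2 (7.94 to 13.2). It was followed by chr17:66131001-66134000 at 9.53 (7.88 to 11.6), chr6:72848001-72851000 at 9.32 (7.72 to 11.3), chr6:100236001-100239000 at 9.13 (7.65 to 11.0) and chr13:112597001-112600000 at 9.08 (7.64 to 10.9). These 5 had 3 bins, 1 summit and a highest bin of 602 to 976 reads, and their intervals overlapped. The lowest ratios among domains with many repeated reads were 1.09 (1.01 to 1.18) at chrX:166424001-166430000 and 1.13 (0.922 to 1.38) at chr5:124446001-124449000. At chrX:166424001-166430000 bins held 361, 176, 142, 212, 118 and 438 ChIP reads and 408, 153, 71, 334, 110 and 248 input reads, and the 3 highest bins were the same in ChIP and in input.

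The 44 domains with few repeated reads were poorer in ChIP, with a median of 131 reads in the highest bin, against 484 in the 761. Their lowest bin held a median of 0.469 times the reads of the highest, against 0.194, but the limit of 40 reads keeps this value high where the highest bin is low. Among domains whose highest bin held 100 to 149 reads it was 0.470 in 35 with few repeated reads and 0.438 in 55 with many. The ChIP to input ratio had a median of 2.57 in the 44, against 4.32 in the 761, without matching for depth. Depth was also matched where the highest bin held 100 to 199 ChIP reads. The median input of that bin was 46.5 reads beside 131 ChIP reads in 40 domains with few repeated reads. In 98 domains with many it was 47.5 beside 142. Pooled over whole domains, the ratio was 1.72 (1.68 to 1.76) in the 44, against 4.43 (4.41 to 4.46) in the 761. It was 2.31 (2.25 to 2.37) in the 44 without 3 domains with ChIP below input scaled by library totals. Those 3 were taken out by their low ratio, so the rise follows from the choice. The 44 comprised a stretch of chromosome 8, 29 scattered domains, and those 3 domains. These sets were made after the values were seen. The 40 domains matched for depth include all 12 of the chromosome 8 stretch. Median input was 52.2 reads per kb in those 12, against 33.7 in the scattered domains. The 46.5 therefore mixes unlike sets, and no likeness of the kinds is read from it.

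The stretch chr8:126061001-126148000 held 12 of the 44 domains and the widest of all by bins, chr8:126122001-126148000 with 26 bins. Measured without the bin grid, the width around the highest point was only 1000 to 1250 bp in these 12. The median over all broad domains was 1800 bp. When bins began at position 500, the widest domain of the genome had 16 bins. Over 87 kb the stretch held 7321 ChIP and 4424 input reads, a ratio of 1.65 (1.59 to 1.72). At its start the first bin held 72 ChIP and 50 input reads where the bin before it held 0 and 9. At its end the last bin held 118 and 64, the next held 22 and 32, and the bin after that 0 and 2, so input stayed within its range inside the stretch (26 or more) for 1 bin more. Inside the stretch input averaged 50.9 reads per kb, against 6.56 and 8 over 50 kb on its sides, and ChIP averaged 84.2 reads per kb, against 1.73 and 1.96. The bins that divided the stretch into 12 domains were 11 bins of 24 to 39 ChIP reads, and with 1 bin under the limit allowed the whole 87 kb was a single domain.

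Within this stretch the signal repeated itself. The ChIP profile moved by 1700 bp had a correlation of 0.92 with itself over 50 bp steps, and the input profile had 0.68 at the same lag. Searched in steps of 1 bp, the period was 1696 bp in each library, which gives 51.3 units over the stretch. With all units laid over each other and divided into 17 parts, ChIP reads ran from 23 to 1440 per part and input reads from 42 to 475. ChIP was highest in part 2 and input in part 16, and the ratio ran from 0.434 in part 8 to 3.57 in part 3. The highest part held 62.6 times the reads of the lowest in ChIP and 11.3 times in input.

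**Figure D4:**
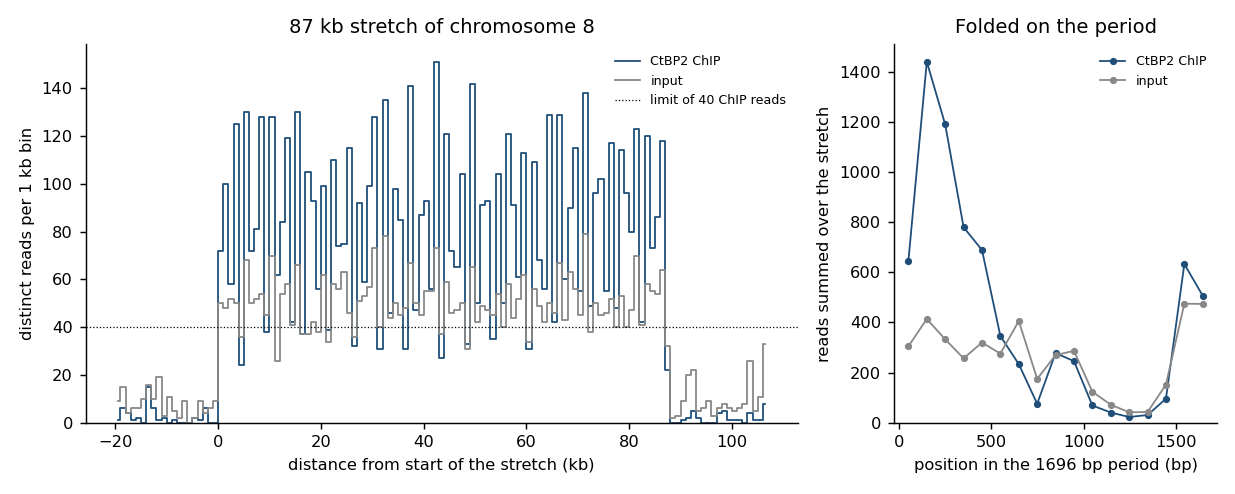
Left, distinct ChIP and input reads per 1 kb bin along the 87 kb stretch of chromosome 8 with 20 kb on each side, with the limit of 40 ChIP reads as a dotted line. Right, reads of the stretch summed over its units at each position of the 1696 bp period, where ChIP reached 1440 and input 475 reads per part.

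Another periodic domain was chr3:93084001-93097000, the second widest by bins. Its 13 bins held 60 to 100 ChIP reads and 24 to 47 input reads, a ratio of 2.55 (2.28 to 2.86). The ChIP profile had a correlation of 0.74 at a lag of 750 bp. Input had its highest value, 0.35, at 4500 bp, and its value at 750 bp is not given here. The domain chr12:114014001-114023000 was even without a period. Its 9 bins held 212, 244, 239, 232, 218, 221, 230, 239 and 253 ChIP reads and 73, 61, 77, 50, 68, 70, 72, 64 and 52 input reads, with a highest ChIP correlation of 0.27 at the lags computed. Its ratio of 3.56 (3.24 to 3.91) ranked 2 among the scattered domains. It held 232 ChIP and 65.2 input reads per kb, where the scattered domains of 3 bins held 64.7 to 130 ChIP and 27 to 42.7 input reads per kb.

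The 29 scattered domains, which include the pair just described, lay on 14 chromosomes, a median of 183 kb from the nearest run, and none had a run within 10 kb. The 25 of 3 bins held 194 to 389 ChIP reads and 81 to 128 input reads, and all 29 had ratios between 2.23 and 3.77. The interval was 1.80 to 2.78 at chr6:56196001-56199000, the lowest, and 3.02 to 4.75 at chr9:80849001-80852000, the highest, so these did not overlap. The most even was chr5:16750001-16753000, where bins held 127 to 132 ChIP reads. A similar stretch of 5 bins, chr8:53389001-53394000, held 628 ChIP and 217 input reads, a ratio of 2.89 (2.48 to 3.39). The width at 0.5 of the summit height had a median of 1700 bp, against 450 bp in the 761. The widths were not matched for depth, and the highest 250 bp held a median of 46 ChIP reads, against 266 in the 761. Input in the scattered domains was 7.98 times the rest of the genome.

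In 3 domains the ChIP count reached the limit although input was far higher. At chr4:118219001-118222000 bins held 47, 155 and 66 ChIP reads and 218, 649 and 281 input reads, and at chr17:13743001-13746000 they held 80, 104 and 208 ChIP reads and 325, 492 and 805 input reads. At chr15:91737001-91740000 they held 41, 42 and 49 ChIP reads and 145, 131 and 140 input reads. Their ratios of 0.233 (0.204 to 0.267), 0.242 (0.216 to 0.270) and 0.317 (0.259 to 0.387) stood beside 0.291 in bins under the limit, which lay above the first pair of intervals and inside the last.

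Domains were unevenly spread over chromosomes. For those with many repeated reads the number per Mb ran from 0.573 (0.425 to 0.755) on chromosome 17, 0.567 (0.385 to 0.804) on chromosome 19 and 0.543 (0.416 to 0.698) on chromosome 11 to 0.194 (0.121 to 0.293) on chromosome 9, 0.181 (0.125 to 0.255) on chromosome 1 and 0.0852 (0.0440 to 0.149) on chromosome X. The intervals of chromosomes 17, 19 and 11 overlapped each other and not those of chromosomes 9, 1 and X. Runs of any length also differed in number, with 8.53, 9.34 and 10.9 per Mb on chromosomes 17, 19 and 11 and 5.37 on chromosome 1. Domains with many repeated reads made up 6.73%, 6.07%, 4.99% and 3.38% of the runs of these 4 chromosomes. Chromosome X held 12 such domains, and autosomes 749, or 0.331 (0.307 to 0.355) per Mb. With domains of both kinds counted, fewer runs of X were broad. The share was 2.39% of its 628 runs (Clopper-Pearson interval 1.34 to 3.91), against 4.95% (4.62 to 5.30) of autosomal runs. Outside runs, chromosome X had 1.14 ChIP and 4.57 input reads per kb, while autosomes had 1.23 to 1.49 ChIP and 4.22 to 4.94 input reads per kb. The part of this lower ChIP depth in the low number was not tested. Chromosome 9 had 7.45 runs per Mb and chromosome X 4.46. Again with both kinds counted, 2.72% (1.73 to 4.05) of the runs of chromosome 9 were broad, with 1.35 ChIP reads per kb outside runs.

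**Figure D5:**
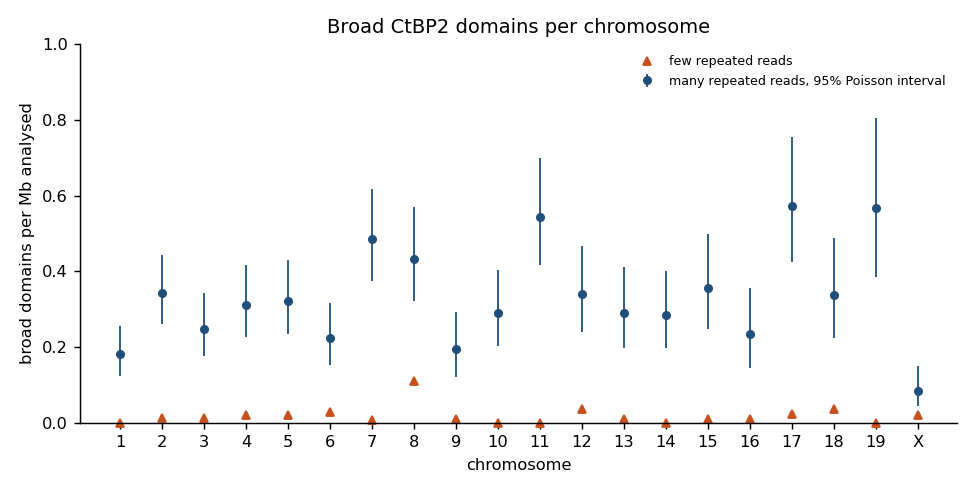
Broad domains per Mb analysed on each chromosome, for domains with many repeated reads (circles, with 95% Poisson intervals) and with few (triangles). Chromosome 17 had the highest value for many repeated reads, 0.573 per Mb, and chromosome X the lowest, 0.0852, while the 13 domains with few repeated reads on chromosome 8 gave the highest triangle.

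Broad domains had another run nearby more often than shorter runs did. Another run lay within 10 kb of 249 of 805 domains (30.9%), against 21.8% of runs of 1 or 2 bins, and the share was 31.1% among the 761. In 20 places domains lay within 10 kb of each other, 52 domains in all. Beside the stretch of chromosome 8, the places with 3 domains were chr13:23836001-23855000, with 2521 ChIP and 428 input reads, and chr1:172994001-173012000, with 2503 ChIP and 1355 input reads. The place on chromosome 13 had a ratio of 5.89 and 2.43 to 2.82 ChIP lines per position, and that on chromosome 1 had a ratio of 1.85 and only 1.44 to 1.49, among the lowest of the 761. The pair of domains at chr3:96042001-96052000 held 3298 ChIP and 445 input reads, a ratio of 7.41. Of 2582 stretches of 1 Mb 580 held a domain and 140 held 2 or more. Leaving chromosome 8 from 126 to 127 Mb aside, the most were 8 domains in 73 to 74 Mb of chromosome 8, 7 in 19 to 20 Mb of chromosome 7, and 6 each in 23 to 24 Mb of chromosome 13 and 96 to 97 Mb of chromosome 3. These stretches held 53, 40, 21 and 24 runs of any length.

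The lowest bin held 40 or 41 reads in 44 of 805 domains (5.47%), and 42 further runs were kept out by 1 bin of 38 or 39. Just inside, chr14:57429001-57432000 held 41, 975 and 367 ChIP reads and 18, 106 and 83 input reads. With 752 and 642 ChIP reads beside a bin of 41, chr5:125341001-125344000 was also a member, as was chr5:137506001-137510000 with 274, 273, 696 and 40. Just outside, chr14:57504001-57507000 held 355, 960 and 39 ChIP reads and 88, 142 and 25 input reads, chr17:65961001-65964000 held 39, 774 and 509 ChIP reads, and chr4:106583001-106586000 held 443, 642 and 38.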

How the data were processed

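The deposited files held aligned reads as positions in bp, 1 line per read of 33 to 38 bp, and each line stands for a count of 1 in the name column of the deposited files, without normalization. Per the submitters' processing notes the tools were BWA, SAMtools 0.1.19 and bedtools 2.17.0 with build mm9; settings and read filters are not given in the sources used here. Per the labels' protocols, formaldehyde-fixed chromatin was sonicated and precipitated with anti-CtBP2.

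The 34890624 ChIP and 20896067 input lines gave 4.12 and 1.67 lines per position on chromosomes 1 to 19 and X. Of the ChIP lines 15280897 lay on 90709 positions in 8 runs touching bins left out for high input, which raises the 4.12. Bins under the limit had 1.59 ChIP lines per position. Reads were assigned to bins by their 5 prime end. Bins of 10 kb with 4200 or more input lines (26) were left out, and bins with at least 1 read in either library were counted as analysed. Profiles and summits used 5 prime ends moved 100 bp, in steps of 50 bp summed over 250 bp. Python 3.11.15, NumPy 2.4.6, SciPy 1.17.1, pandas 2.3.3 and matplotlib 3.10.9 were used. The run finder was tested on simulated data. Intervals are exact Poisson, Clopper-Pearson, or binomial order-statistic intervals for medians.

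Members and lists were chosen with earlier results of these data known. Named domains were the 10 with most bins, the 10 with most ChIP reads, the 5 highest and 5 lowest in ratio, and 3 on each side of the limit. Others were chosen after their values were seen. Transcription starts, gene lists and sequence composition, planned for an annotation of mm9, were not run.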

Additional observations from a re-analysis of the deposited data

Results flagged for a closer look

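In sequence that the comparisons do not use, 8 runs of 3 or more bins at the limit touched the 10 kb bins left out for high input. They held 90709 ChIP and 91216 input reads, a ChIP to input ratio of 0.994 (exact interval 0.985 to 1.00), which is above the 0.680 of library totals. The runs held 15280897 ChIP and 6530106 input lines, on 49.8% and 50.1% of the places where a read can begin. Distinct reads did not follow the number of lines there, so their ratio is no measure of enrichment. The ratio of deposited lines was 2.34, against 1.68 over all lines of chromosomes 1 to 19 and X. The 1.68 includes the 8 runs, whose lines are a large part of the 34872578 ChIP and 20779524 input lines. Repeated lines are not independent molecules.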

How the results depend on the processing

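No paired analysis was possible because ChIP and input were single libraries. Transcription starts (the share of domains holding one included), the gene list and sequence composition were not run under any setting, since no mm9 annotation or genome was used. For each setting the number of domains, the share of ChIP reads, the ChIP to input ratio, the input density over the rest of the genome and the median of lowest over highest bin were computed, 805, 7.80%, 4.24, 12.6 and 0.207 in the main setting. Number of domains: it stayed within 1.5 times 805 in 6 of 11 settings and was 1280 with all deposited lines, 525 at 60 reads per bin, 279 at 100 reads, 512 where each bin needed 3 times scaled input, and 155 with at least 4 bins. Share of ChIP reads: 6.64% with all lines, 9.35% at 30 reads, 5.77% at 60, 3.65% at 100, 7.91% with bins starting at position 500, 6.27% with 5 prime ends moved 100 bp, 8.86% with no high-input exclusion, 5.77% at 3 times scaled input, 1.85% with 4 bins, 9.08% with 1 bin below the limit allowed and, added after the values were seen, 7.58% without the domains of few repeated reads. Ratio: 8.57, 4.08, 4.49, 4.89, 4.11 (ends moved), 3.05 (no exclusion), 5.11 (scaled input), 3.78 (4 bins), 4.06 (1 bin allowed) and 4.43 (without few repeated reads), the first 4 for all lines, 30, 60 and 100 reads. The 8.57 is a ratio of lines, whose library totals had a ratio of 1.68, against 0.680 for distinct reads. It is therefore not on the scale of the other ratios. Input density: 12.4, 12.1, 13.5 and 14.9 for the same 4, 12.5 with bins from position 500, 12.8 with ends moved, 19.2 with no exclusion, 12.4 with scaled input and 11.4 with 1 bin allowed. Median of lowest over highest bin: 0.124, 0.176, 0.250 and 0.316 for the same 4, 0.245 with ends moved, 0.184 with 4 bins and 0.147 with 1 bin allowed. Counting error of a bin near 40 reads, with 1 library per group, limits which runs reach 3 bins.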
